A study of Homo sapiens with 72 samples.

Results

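The nuclear genes of oxidative phosphorylation are described here across wild-type cells and TUT4/7 mutants of 2 human cancer cell lines. Members were taken from the mRNA count files by their gene symbols: the NDUFA, NDUFB, NDUFC, NDUFS and NDUFV families, symbols starting with UQCR or ATP5, the COX5 to COX8 subunit families, SDHA to SDHD and CYC1. This gave 86 of 26485 symbols, after 2 pseudogenes (ATP5EP2 and UQCRBP1) were left out. By the complex to which their proteins belong, 36 were of complex I, 4 of complex II, 10 of complex III, 15 of complex IV (with NDUFA4) and 15 of complex V. The remaining 6 carry a matching symbol but are not subunits of the core enzymes or are readthrough or duplicated genes (ATP5S, ATP5SL, NDUFA4L2, COX7A2L, ATP5J2-PTCD1 and ATP5L2). The count files use older names for the ATP synthase genes, so that ATP5A1 is today's ATP5F1A, ATP5O is ATP5PO, ATP5J is ATP5PF, ATP5G1 is ATP5MC1 and ATP5G2 is ATP5MC2. The genes COX4I1 and NDUFAB1 encode subunits but fall outside the symbol rule.

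Oxidative phosphorylation takes place in the inner mitochondrial membrane. Complex I (NADH dehydrogenase) and complex II (succinate dehydrogenase, also an enzyme of the citric acid cycle) pass electrons to ubiquinone, complex III hands them to cytochrome c, and complex IV uses them to reduce oxygen. The proton gradient built up on the way drives complex V, the ATP synthase. Most subunits are encoded in the nucleus and imported, while a few core subunits of complexes I, III, IV and V are encoded in the mitochondrial genome and were not analysed here. The library totals used here hold no reads of those genes. NRF1, GABP (an ETS family factor) and YY1 are known to bind promoters of many of the nuclear genes.

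TUT4 and TUT7 are enzymes that add uridines to RNA 3′ ends, and LIN28A is an RNA-binding protein that recruits them to let-7 precursors. The study asked what the loss of both enzymes does to small RNAs and mRNAs with and without LIN28A. mRNA was sequenced in 36 libraries, 4 in each of 9 groups. IGROV1 is an ovarian cancer line that expresses LIN28A, and DU145 is a prostate cancer line that does not. In each line the wild-type cells were compared with 2 double mutant clones, cKO1 and cKO2, in which both TUT4 and TUT7 had been edited with a CRISPR nickase. The third background, LIN28A-OE DU145, holds wild-type cells and the mutant clones of DU145 after lentiviral transduction with a LIN28A coding sequence under the CMV promoter and puromycin selection. IGROV1 cells grew in RPMI and DU145 cells in EMEM. The replicates of a group are successive passages of 1 culture, from passage 6 to 9 for IGROV1 wild-type, 2 to 5 for cKO1 and 3 to 6 for cKO2, from 9 to 12 for DU145 cKO1 and 8 to 11 for cKO2, and from 1 to 4 for every LIN28A-OE DU145 group. DU145 wild-type cells were at a far later passage than any other group. Hence p-values measure only the spread between passages of a culture, and each mutant genotype in a line rests on 2 clones.

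The libraries held 7.2 to 25.05 M reads in genes, with a median of 13.45 M, and the members took 0.671% to 1.569% of them. TUT4 (listed as ZCCHC11) had 73.9 to 88.2 CPM (read counts scaled to library size by TMM factors) in IGROV1 wild-type cells and at most 35.7 CPM in the mutants. In DU145 it had 46.3 to 65.5 CPM in wild-type cells, 5.15 to 15.1 CPM in cKO1 and 25.9 to 44.4 CPM in cKO2. In LIN28A-OE DU145 cKO2, TUT4 mRNA was at 55.0 to 59.0 CPM, within the wild-type range of 52.6 to 75.7 CPM, whereas TUT7 (ZCCHC6) was at 27.2 to 38.4 CPM against 52.2 to 76.2 CPM. An edit of the coding sequence need not lower its mRNA. LIN28A was at most 0.456 CPM in DU145, 185 to 261 CPM in IGROV1 wild-type cells, and in LIN28A-OE DU145 64.2 to 75.4 CPM in wild-type cells, 316 to 396 CPM in cKO1 and 211 to 301 CPM in cKO2. The transgene level therefore differed between the wild-type and mutant LIN28A-OE groups. The lists of tissue markers separated the lines only in part. The 9 prostate epithelium markers summed to 978 to 2703 CPM in DU145, with KRT8, a luminal keratin, at 543 to 1731 CPM but KLK3 and HOXB13 at most 0.117 CPM, and to 51.6 to 596 CPM in IGROV1, where HOXB13 was at 5.01 to 26.5 CPM. The 8 ovarian carcinoma markers summed to 672 to 2070 CPM in IGROV1 and to more, 1576 to 3648 CPM, in DU145. In IGROV1 PAX8 was at 435 to 992 CPM, FOLR1 at 106 to 877 CPM and SOX17 at 121 to 246 CPM, but KRT7 was at most 1.75 CPM, MSLN at most 0.763 CPM, MUC16 at most 2.95 CPM and WT1 at most 1.56 CPM. KRT7 made up most of the sum in DU145, at 1506 to 3548 CPM. The 6 leukocyte markers summed to at most 6.71 CPM. Going by the library indices in the deposited names, replicates 1 and 2 and replicates 3 and 4 formed 2 sets, so the counts within each set are given too. In these bulk samples fewer expressing cells and less RNA per cell cannot be told apart.

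Of the 86 members, 81 passed the filter on low counts, among 15556 genes. The 5 that did not, namely COX6A2, COX7A1, COX7B2, COX8C and ATP5J2-PTCD1, had few or no reads. COX6A2 and COX7A1 are the heart and muscle forms of their subunits, and COX7B2 and COX8C have been described as testis forms. Per kilobase of transcript, ATP5B (the catalytic β subunit of ATP synthase) was the most abundant member, at 772 CPM per kilobase in IGROV1 wild-type and 764 in DU145 wild-type cells. UQCRH, the hinge subunit of complex III, followed at 510 and 339 CPM per kilobase in the 2 lines. This order depends on the transcript chosen, whose length was 1759 nucleotides for ATP5B and 5761 for ATP5A1. UQCRHL is a near-identical copy of UQCRH, so that their reads cannot be assigned with certainty, and the same holds for ATP5E and its pseudogene ATP5EP2.

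The CPM values of all members, scaled by TMM factors, were summed in each library. In IGROV1 it was 11681 to 12244 in wild-type cells, 12270 to 18679 in cKO1 and 12718 to 16972 in cKO2. On this scale every mutant library was above the wild-type range, and in both clones replicate 4 was the highest. Per plain library total, which gives the share of reads, the wild-type range was 10987 to 11637 CPM and 7 of the 8 mutant libraries were above it, while cKO1 replicate 2 lay within it at 11625.5 CPM. The highest library, cKO1 replicate 4, was at 15693 CPM on that scale in place of 18679 CPM. In DU145 it was 8606 to 12426 in wild-type cells, 9356 to 11579 in cKO1 and 7723 to 9703 in cKO2, so the groups overlapped. In LIN28A-OE DU145 it was 7703 to 10407 in wild-type cells, 7466 to 9193 in cKO1 and 6296 to 6931 in cKO2, where all 4 cKO2 libraries were below the wild-type range. In 4 libraries the sum stood apart from the rest of the group, namely replicate 1 of DU145 wild-type and of LIN28A-OE DU145 wild-type and replicate 4 of both IGROV1 clones, and results are also given without them where that changes a call. These libraries were picked by the measured sum itself, so fits without them are a description only. Most member mRNAs are short, and the summed CPM of other genes with transcripts under 1000 nucleotides also differed between the groups: its mean was 74458 ± 3257 (SD, n = 4) in IGROV1 wild-type, 95072 ± 20934 in cKO1 and 81494 ± 14511 in cKO2, 65885 ± 8158 in DU145 wild-type, and 52345 ± 2411 in LIN28A-OE DU145 cKO2. The 2 sums did not always go together, since IGROV1 cKO2 replicates 1 and 2 had short-gene sums of 71861 and 71790 CPM, below every wild-type library (72713 to 79339 CPM), and member sums of 12890 and 12718 CPM, above the wild-type range. The median difference of these 1098 other short genes is therefore given with the comparisons other than those of single clones, and a fit with their summed level as a covariate is given where it moves a count or a call.

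**Figure D1:**
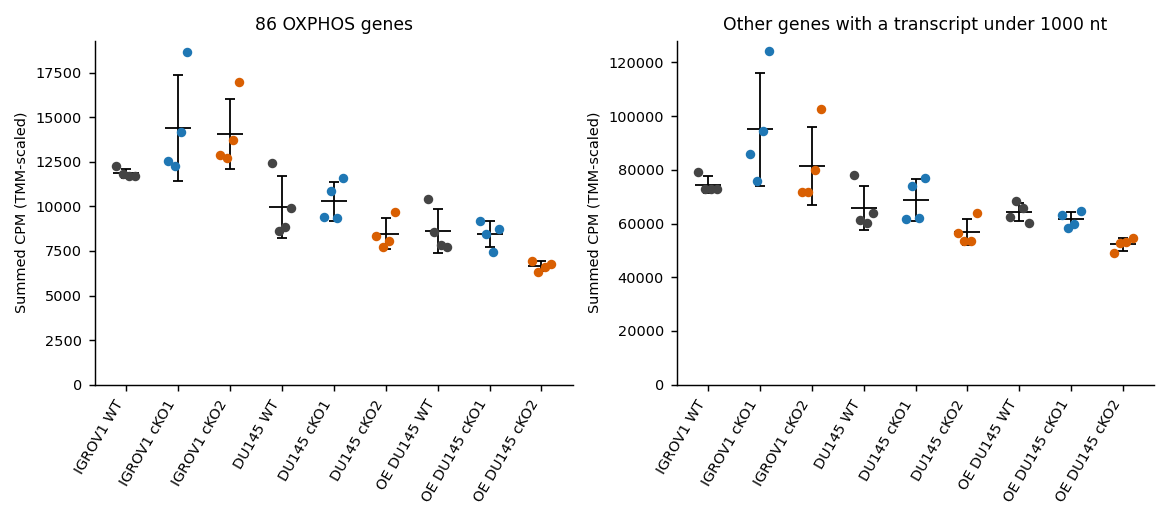
Summed CPM of the members in each of the 36 libraries (points, by replicate) with the mean and SD of each group of 4, beside the same sum for other genes with short transcripts (OE stands for LIN28A-OE). The sums are scaled by TMM factors. The 8 IGROV1 mutant libraries lie above the wild-type range of 11681 to 12244 CPM, but 1 of them (cKO1 replicate 2) lies within that range with plain library totals, and LIN28A-OE DU145 cKO2 holds the lowest sums, 6296 to 6931 CPM.

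The 2 wild-type lines were compared first. Of 81 members, 10 were higher in DU145 wild-type than in IGROV1 wild-type cells and 27 were lower (edgeR quasi-likelihood test, Benjamini-Hochberg adjusted p under 0.01). Across all genes 31.3% were higher and 28.7% lower. The members had a median difference of -0.22 on the log2 scale, against 0.03 over all genes and 0.11 over other short genes. With the short-gene covariate the member median was -0.07. The lower members included 12 of 36 of complex I, 4 of 10 of complex III, 5 of 11 of complex IV and 6 of 15 of complex V. No member of complex II was lower, and 2 of its 4 were higher, SDHA by 0.61 ± 0.13 (SE) and SDHC by 0.49 ± 0.09. Line, medium and passage cannot be told apart in this comparison.

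ATP5S, also known as DMAC2L and not a subunit of the core enzyme, was at 34.8 to 57.3 CPM in DU145 wild-type and 6.57 to 10.4 CPM in IGROV1 wild-type cells, a difference of 2.44 ± 0.17 with adjusted p = 8.13e-15. COX6B2, known as a testis form of COX6B, had 2.11, 1.43, 1.09 and 2.34 CPM in the 4 DU145 wild-type libraries and at most 0.275 CPM in those of IGROV1. NDUFA4L2, a hypoxia-inducible paralogue of NDUFA4, was at 0.105, 2.56, 2.01 and 0.468 CPM in DU145 wild-type cells, while 2 of the 4 IGROV1 wild-type libraries had none and the others 0.07 and 0.11 CPM. These levels are low, and NDUFA4L2 varied widely among the DU145 passages. In the other direction NDUFS5, an accessory subunit of complex I, had 58.8 to 93.9 CPM in DU145 and 239 to 267 CPM in IGROV1 wild-type cells, a difference of -1.83 ± 0.16 with adjusted p = 3.42e-12. NDUFB7 and NDUFA3, also accessory subunits of complex I, differed by -1.51 ± 0.18 and -1.44 ± 0.20.

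In IGROV1 more members were higher than lower in the TUT4/7 mutants. The mutants are 2 clones and mostly carry earlier passage labels, so clone, passage and loss of TUT4/7 cannot be told apart. Of 81 members, 18 were higher in the mutants than in wild-type cells and 2 were lower, where 15.1% of all genes were higher and 18.1% lower. The share of listed reads not assigned to a gene was 26% to 27.5% in wild-type and 27.6% to 30.1% in mutant libraries, without overlap, and its part in the result was not tested. In total 68 members had a positive difference. The median difference of the members was 0.26, against 0.00 for all genes and 0.15 for the other short genes. With the short-gene covariate the member median was 0.03, and the counts of that fit, given with the single clones, no longer leaned to higher. Complex I held 10 higher and 2 lower members of 36, complex III 2 higher of 10, complex IV 3 higher of 11 and complex V 3 higher of 15, and no member of complex II passed the threshold. The median over complex IV, 0.42, was above those of complex I (0.26), complex III (0.29) and complex V (0.21).

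COX6C, a small subunit of complex IV, had 95.7, 106, 93.2 and 98.5 CPM in IGROV1 wild-type cells, 162, 178, 212 and 166 CPM in cKO1, and 128, 138, 125 and 136 CPM in cKO2. Both clones were above the wild-type range in every library. The difference was 0.64 ± 0.10 with adjusted p = 2.68e-06. NDUFB9 and NDUFB8 are accessory subunits of the membrane arm of complex I. NDUFB9 had 165 to 175 CPM in wild-type cells, 194, 190, 234 and 317 CPM in cKO1, and 254, 268, 284 and 320 CPM in cKO2. NDUFB8 had 155 to 168 CPM in wild-type cells, 195 to 316 CPM in cKO1 and 220 to 303 CPM in cKO2. For both genes every mutant library was above the wild-type range, and the differences were 0.59 ± 0.13 (adjusted p = 0.000238) and 0.59 ± 0.14 (adjusted p = 0.00061). Neither gene passed with replicates 1 and 2 alone (adjusted p = 0.033 for NDUFB9 and 0.105 for NDUFB8).

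NDUFS7 encodes an iron-sulphur subunit of the peripheral arm that passes electrons on to ubiquinone. It had 65.6 to 70.8 CPM in IGROV1 wild-type cells, 92.4, 87.8, 111 and 182 CPM in cKO1 and 84.8, 82.5, 91.2 and 135 CPM in cKO2. All 8 mutant libraries were higher, with replicate 4 far above the others in both clones. The difference was 0.65 ± 0.16 with adjusted p = 0.00109. NDUFS7 did not pass with replicates 1 and 2 alone (0.32, adjusted p = 0.115), with only the IGROV1 groups in the fit (adjusted p = 0.0155) or in cKO2 alone (adjusted p = 0.0193). ATP5D, the δ subunit of the central stalk of ATP synthase, showed the same replicate 4, with 109 to 130 CPM in wild-type cells, 137, 131, 164 and 264 CPM in cKO1 and 155, 149, 163 and 237 CPM in cKO2. Its difference was 0.55 ± 0.17 with adjusted p = 0.0093, close to the threshold. ATP5D did not pass without the 4 libraries that stood apart (0.34, adjusted p = 0.0279) or with the short-gene covariate (0.19, adjusted p = 0.137). Nor did it pass without the low-count filter, with the set of replicates as a term, or with either set alone. It also failed with only the IGROV1 groups in the fit and with both clones required, and passed in 4 of 12 fits with 1 library left out. COX6C, by contrast, was not highest in replicate 4 of either clone.

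Each IGROV1 clone was also tested alone. In cKO1 14 members were higher and 3 lower, against 14.5% and 16.6% of all genes, and in cKO2 10 were higher and 3 lower, against 14.2% and 15.9%. Both clones had a member median of 0.27. The members past the threshold in both clones were COX6C, NDUFA8, NDUFB8, NDUFB9 and NDUFV1, which were higher, and NDUFC2, which was lower. Over all genes 7.53% were higher and 9.94% lower in both clones. With replicates 1 and 2 alone 2 members were higher and 2 lower, and with replicates 3 and 4 alone 8 were higher and 1 lower. When the summed level of other short genes was added to the fit as a covariate, 8 were higher and 8 lower and the member median was 0.03. Markers of other cell types also moved in these mutants. Of the tested prostate epithelium markers 1 was higher and 4 lower of 6, with a median of -1.28, and the list summed to 475 to 596 CPM in wild-type cells, 227 to 502 CPM in cKO1 and 51.6 to 81.5 CPM in cKO2. Of the ovarian carcinoma markers 3 of 6 were lower, with sums of 1376 to 1601 CPM, 1290 to 2070 CPM and 672 to 1137 CPM in the same order. Of the fibroblast and endothelial markers 2 of 5 were lower, with sums of 84.2 to 130 CPM, 23.3 to 45.3 CPM and 75.4 to 135 CPM, while the leukocyte list stayed at or below 1.25 CPM. The part of these markers in the member differences was not tested.

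The 2 lower members in IGROV1 mutants both encode accessory subunits of complex I. NDUFC2 (chr11:78068297-78079862, GRCh38) had 29.4, 29.3, 27.4 and 33.4 CPM in wild-type cells, 15.3 to 22 CPM in cKO1 and 14.8, 14.3, 15.6 and 16.8 CPM in cKO2. The mutant libraries did not reach the wild-type range. The difference was -0.87 ± 0.10 with adjusted p = 7.38e-09, and the clones gave -0.78 and -0.96. NDUFC2-KCTD14, the readthrough transcript of this gene, was listed at 0 reads in every library. The second gene, NDUFA10 (chr2:239892442-240025342), had 141, 133, 125 and 136 CPM in wild-type cells, 72.0, 68.8, 71.3 and 99.9 CPM in cKO1, and 114, 112, 117 and 148 CPM in cKO2. Only cKO1 lay fully below the wild-type range, and NDUFA10 differed by -0.78 in cKO1 (adjusted p = 7.22e-07) and by -0.13 in cKO2 (adjusted p = 0.384). Over both clones its call was lost with replicates 3 and 4 alone (adjusted p = 0.234). The genes near NDUFA10 and NDUFC2 are described with the chromosomal positions of the members.

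**Figure D2:**
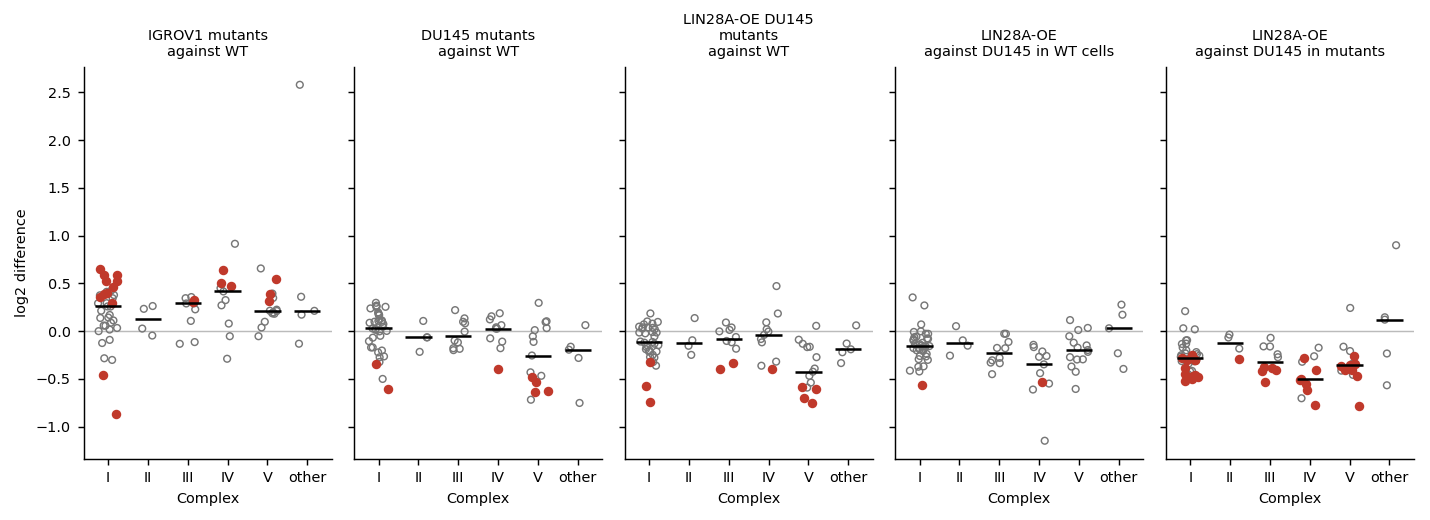
Fitted log2 differences of the 81 tested members, grouped by complex, in the comparisons of mutants with wild-type cells and of LIN28A-OE DU145 with DU145. Each point is 1 member, bars are medians, and filled points passed adjusted p under 0.01. IGROV1 mutants hold 18 higher and 2 lower members, DU145 mutants 7 lower, LIN28A-OE DU145 mutants 10 lower, and LIN28A-OE against DU145 mutants 33 lower.

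In DU145 the member medians of the 2 clones had opposite signs, and the difference between the clones was not tested. In cKO1 50 of 81 members had a positive difference, with a median of 0.13, and in cKO2 63 had a negative one, with a median of -0.18. The pooled SD of the libraries' median member level was 0.18 on the log2 scale. With both clones together none of 81 was higher in the mutants and 7 were lower, where 7.84% of all genes were higher and 10.2% lower. The wild-type cells and the clones differed in labelled passage, so clone, passage and loss of TUT4/7 cannot be told apart here. At an unadjusted p under 0.05, 19 members passed, of which 16 were lower, and DESeq2 called 0 higher and 8 lower. The median difference was 0.00, with 40 positive and 41 negative, against 0.01 for other short genes, and its sign changed between scalings. With the short-gene covariate 11 members were higher and 10 lower. The 7 lower members were 4 of 15 of complex V (ATP5A1, ATP5O, ATP5J and ATP5G2), 2 of 36 of complex I (NDUFA12 and NDUFS4) and 1 of 11 of complex IV (COX7C). Complex V had a median of -0.25.

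ATP5A1, the α subunit that forms the catalytic head together with ATP5B, had 630, 418, 417 and 487 CPM in DU145 wild-type cells, 412, 435, 432 and 478 CPM in cKO1, and 211, 199, 228 and 258 CPM in cKO2. The cKO2 libraries were all below the wild-type range, and those of cKO1 overlapped it. The difference over both clones was -0.64 ± 0.10 (adjusted p = 5.97e-06), made up of -0.15 in cKO1 (adjusted p = 0.324) and -1.12 in cKO2 (adjusted p = 3.15e-09). ATP5O, the subunit of the peripheral stalk that confers oligomycin sensitivity, was lower in both clones: 343, 233, 252 and 262 CPM in wild-type cells against 151, 170, 146 and 156 CPM in cKO1 and 205, 192, 197 and 213 CPM in cKO2. No mutant library reached the wild-type range, and the difference was -0.62 ± 0.10 with adjusted p = 1.44e-05. ATP5J, coupling factor 6 of the same stalk, had 137, 103, 104 and 122 CPM in wild-type cells and 74.4 to 87.0 CPM in the 8 mutant libraries, again without overlap. ATP5J differed by -0.53 ± 0.09 with adjusted p = 1.18e-05.

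NDUFA12, an accessory subunit of complex I close to the NADH-oxidising module, had 120, 107, 89.8 and 109 CPM in DU145 wild-type cells, 57.8, 70.9, 56.1 and 47.8 CPM in cKO1 and 87.8, 87.6, 76.0 and 84.4 CPM in cKO2. It was below the wild-type range in every mutant library. NDUFA12 differed by -0.61 ± 0.09 with adjusted p = 2.77e-06, and by -0.87 in cKO1 and -0.34 in cKO2, the latter with adjusted p = 0.0111. COX7C, a subunit of complex IV, and NDUFS4, a subunit of complex I in which mutations cause Leigh syndrome, passed the threshold in cKO2 and not in cKO1; the difference between the clones was not tested. COX7C had 210 to 294 CPM in wild-type cells, 225 to 274 CPM in cKO1 and 117 to 141 CPM in cKO2. NDUFS4 had 36.1 to 41.8 CPM in wild-type cells, 38.3 to 51.4 CPM in cKO1 and 19.7 to 25.4 CPM in cKO2. ATP5G2, one of 3 genes for the c subunit of the rotor, was at 222 to 287 CPM in wild-type cells and 149 to 204 CPM in the mutants, with a difference of -0.48 ± 0.12 (adjusted p = 0.00232) that did not pass the threshold without wild-type replicate 1 or 2.

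Each DU145 clone was tested alone as well. In cKO1 5 members were higher (ATP5G3, NDUFA8, NDUFB6, NDUFV2 and UQCRB) and 3 lower (NDUFA12, ATP5O and ATP5J), against 10.4% and 11.3% of all genes. In cKO2 none was higher and 14 were lower, against 9.99% and 10.5% of all genes. With the replicate number as a block the counts were 11 higher and 3 lower in cKO1 and 0 higher and 16 lower in cKO2. At an unadjusted p under 0.05, 22 members passed in cKO2, all of them lower, and DESeq2 called 15 lower and 0 higher. UQCRB, a subunit of complex III, was called in opposite directions, with 0.36 ± 0.09 in cKO1 and -0.37 ± 0.09 in cKO2. Only ATP5J and ATP5O were lower in both clones, where 2.96% of all genes were, and none was higher in both, where 2.24% of all genes were. With replicates 1 and 2 alone 5 members were lower, with replicates 3 and 4 alone none was called, and without the 4 libraries whose summed level stood apart 8 were higher and 8 lower. Markers of other cell types moved in the DU145 mutants as well. The prostate epithelium list summed to 978 to 1800 CPM in wild-type cells, 1361 to 1928 CPM in cKO1 and 1954 to 2703 CPM in cKO2, which did not overlap the wild-type cells, with 1 of 6 tested markers lower over both clones. The ovarian carcinoma list summed to 2630 to 3084 CPM, 2337 to 3520 CPM and 1576 to 2180 CPM in the same order, again without overlap in cKO2, with 1 higher and 3 lower of 6 and a median of -1.01. Of the fibroblast and endothelial markers 1 of 5 was higher, with sums of at most 11.8 CPM, and of the leukocyte markers 1 of 2, with sums of at most 6.48 CPM. The part of these markers in the member differences was not tested.

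In LIN28A-OE DU145 the mutants descend from the same clones. LIN28A mRNA was higher in them than in LIN28A-OE wild-type cells, so the LIN28A level and loss of TUT4/7 cannot be told apart. In this comparison 10 members were lower than in LIN28A-OE wild-type cells, where 7.35% of all genes were higher and 10.6% lower. None was higher, 23 passed an unadjusted p under 0.05, all lower, and DESeq2 also called 10 lower and 0 higher. The member median was -0.13, against 0.00 for all genes and -0.02 for other short genes, and 21 members had a positive difference. With the short-gene covariate 8 members were higher and 10 lower, and the member median was 0.02. The lower members were ATP5A1 (-0.75 ± 0.10), NDUFA12 (-0.74 ± 0.09), ATP5G2 (-0.70 ± 0.12), ATP5O (-0.61 ± 0.10), ATP5J (-0.58 ± 0.08), NDUFV3 (-0.57 ± 0.10), COX7C (-0.40 ± 0.10), UQCRHL (-0.40 ± 0.11), UQCRH (-0.33 ± 0.09) and NDUFS4 (-0.32 ± 0.09). COX7C and NDUFS4 had opposite signs in the clones, with 0.15 and 0.16 in cKO1 (adjusted p = 0.345 and 0.204) and -0.95 and -0.80 in cKO2. Complex V again had the lowest median of the complexes, at -0.42. All 7 members that were lower in the DU145 mutants were lower here too, which is 100% of the first list and 70% of the second. Among them COX7C and NDUFS4 also had positive differences in DU145 cKO1, 0.09 and 0.15, so their place in both lists comes from cKO2. Over all genes, 1000 were lower in both, 62.9% and 60.9% of the 2 lists.

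ATP5A1 had 567, 470, 415 and 429 CPM in LIN28A-OE wild-type cells, 332 to 409 CPM in cKO1 and 218, 194, 214 and 206 CPM in cKO2. Its cKO2 libraries had about the level seen in DU145 cKO2 without LIN28A, 199 to 258 CPM. NDUFA12 had 89.9 to 106 CPM in wild-type cells, 41.7 to 49.9 CPM in cKO1 and 63.6 to 82.8 CPM in cKO2, so that both clones were below the wild-type range and cKO1 had the lowest values, as in DU145. NDUFV3, an accessory subunit of the NADH-oxidising module, had 47.8, 47.3, 42.8 and 44.4 CPM in wild-type cells, 36.1, 27.6, 30.8 and 31.4 CPM in cKO1 and 32.9, 30.2, 26.8 and 29.3 CPM in cKO2. Both clones lay below the wild-type range, and NDUFV3 had adjusted p = 1.78e-05.

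In LIN28A-OE cKO1 4 members were higher (COX5B, COX7B, NDUFA4 and UQCRB) and 7 lower, against 11.3% and 13.9% of all genes. In LIN28A-OE cKO2 none was higher and 23 were lower, against 10.5% and 10.1%, with a median of -0.32. There 39 members passed an unadjusted p under 0.05, all of them lower, and DESeq2 called 23 lower and 0 higher. UQCRB was again called in opposite directions, with 0.44 ± 0.09 in cKO1 and -0.36 ± 0.09 in cKO2, and so was NDUFA4, with 0.62 ± 0.16 and -0.63 ± 0.16. NDUFA4 has long been listed with complex I but belongs to complex IV. The members lower in both clones were ATP5G2, ATP5J, ATP5O, NDUFA12 and NDUFV3, where 3.39% of all genes were lower in both and 2.02% higher. With replicates 1 and 2 alone 7 members were lower, and with replicates 3 and 4 alone 2 were. In a fit of LIN28A-OE cKO2 and wild-type cells alone 12 of 80 members were lower in cKO2, and 17 with the replicate number as a block. The marker lists moved here too, with 1 of 6 prostate epithelium markers lower, 1 higher and 3 lower of 6 ovarian carcinoma markers (median -0.79), 1 of 5 fibroblast and endothelial markers higher and 1 of 2 leukocyte markers higher. In wild-type cells, cKO1 and cKO2 the prostate epithelium list summed to 1079 to 2056 CPM, 1588 to 1958 CPM and 1839 to 2535 CPM, and the ovarian carcinoma list to 2668 to 3648 CPM, 2395 to 2721 CPM and 2326 to 2378 CPM. The fibroblast and endothelial list summed to 8.40 to 14.0 CPM, 19.4 to 25 CPM and 12.6 to 21.4 CPM, and the leukocyte list to at most 6.71 CPM. Their part in the member differences was not tested.

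**Figure D3:**
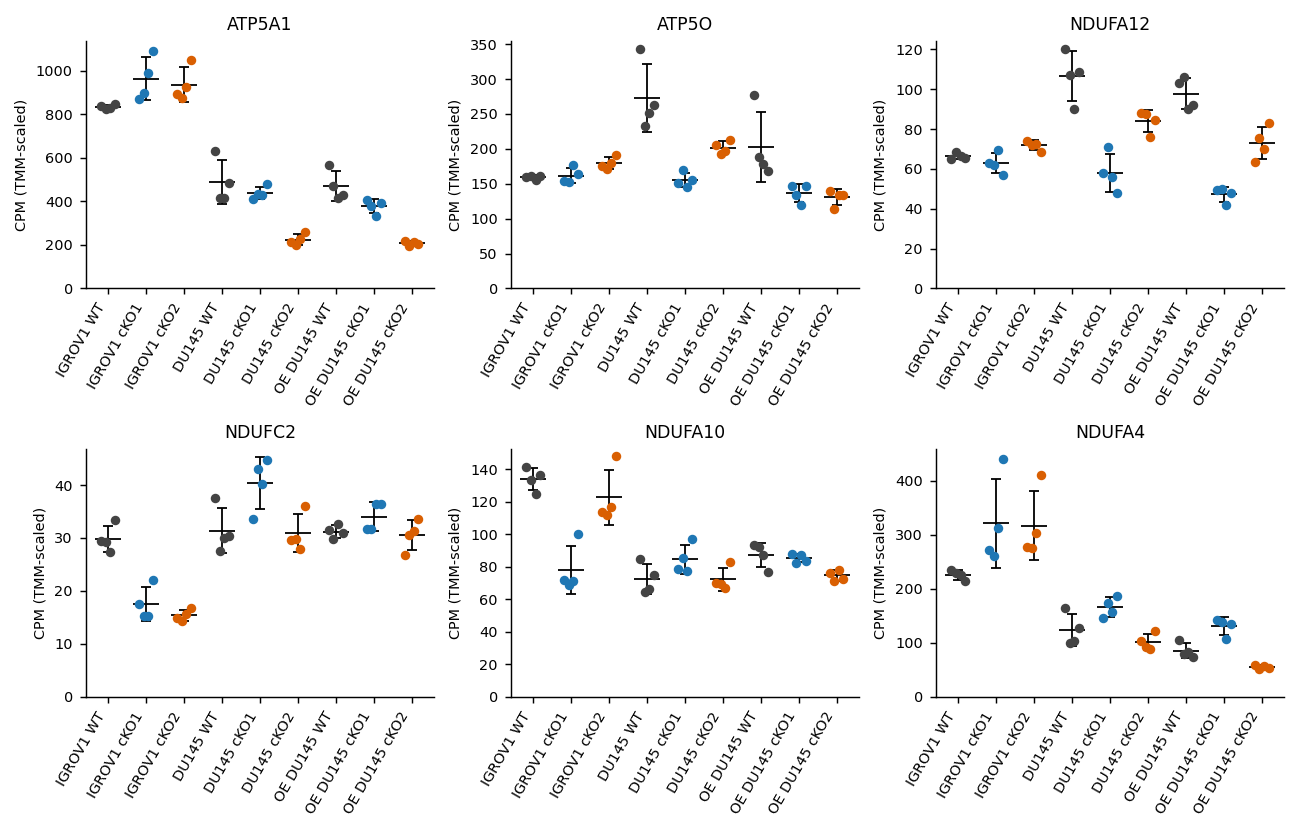
CPM of ATP5A1, ATP5O, NDUFA12, NDUFC2, NDUFA10 and NDUFA4 in every library of the 9 groups (points), with the group mean and SD (OE stands for LIN28A-OE). ATP5A1 is low in cKO2 of DU145 and of LIN28A-OE DU145 (194 to 258 CPM in these 8 libraries), NDUFA12 lowest in cKO1 of both, and NDUFC2 low in both IGROV1 clones (14.3 to 22 CPM).

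The TUT4/7 effects in the 3 backgrounds were then tested against each other. Such an effect is the difference between mutant clones and wild-type cells. It takes in clone, passage and, in LIN28A-OE DU145, the LIN28A level, which cannot be told apart from loss of TUT4/7. The TUT4/7 effect in LIN28A-OE DU145 minus that in DU145 passed for none of 81 members, where 0.18% of all genes were higher and 0.309% lower. None passed an unadjusted p under 0.05, DESeq2 called 0, and the member median was -0.09, with a negative difference in 68 of 81 and quartiles of -0.17 and -0.03. The other short genes had a median of -0.05. The sign of the member median depended on single libraries: it was 0.01 without LIN28A-OE DU145 wild-type replicate 1 and -0.22 without DU145 wild-type replicate 1. The TUT4/7 effect in IGROV1 minus that in DU145 was positive and past the threshold for 14 members and negative for 2, where 11.3% of all genes were higher and 12.8% lower. The median over members was 0.30, and complex V held 6 of the 14, out of 15 tested, with a median of 0.65 (ATP5A1 0.82, ATP5J2 0.81, ATP5J 0.73, ATP5O 0.72, ATP5G2 0.70 and ATP5B 0.65). The others with a positive difference were NDUFB8 (0.85), COX6C (0.75), NDUFV1 (0.75), NDUFA12 (0.62), NDUFV3 (0.58), SDHB (0.48), NDUFB5 (0.47) and UQCRC2 (0.42). NDUFC2 (-1.04 ± 0.14, adjusted p = 6.57e-07) and NDUFA10 (-0.56 ± 0.14, adjusted p = 0.00151) had a negative one. With replicates 1 and 2 alone 3 members were positive and 2 negative, and with replicates 3 and 4 alone 3 and 1. With the covariate of other short genes 12 were positive and 12 negative, around a member median of 0.00. Without it the other short genes had a median of 0.12. Of the marker lists in this contrast, 4 of 6 prostate epithelium markers were lower (median -1.31), and 1 was higher and 2 lower of 6 ovarian carcinoma markers (median -0.42). Of the fibroblast and endothelial markers 1 of 5 was lower (median -1.85), and of the leukocyte markers 1 of 2. The part of these markers was not tested.

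Each member was then set beside the other genes within 5 Mb on either side of it, members excluded. Over 81 members the log2 difference of a member and the median of its neighbours had a Pearson r of 0.65 in DU145 cKO1 and 0.68 in cKO2, 0.73 and 0.55 in LIN28A-OE cKO1 and cKO2, and 0.59 and 0.45 in IGROV1 cKO1 and cKO2. For LIN28A-OE against DU145 the r was 0.01 in wild-type cells and 0.09 in mutants. These are descriptions across genes that share libraries and, in part, neighbours. All 7 members lower in the DU145 mutants had neighbours with a negative median, 5 of them beyond 0.2. So did 8 of the 10 in LIN28A-OE DU145 mutants. In IGROV1 mutants 15 of the 20 called members and their neighbours had the same sign, 5 of them with a neighbour median beyond 0.2, and 5 had the opposite sign.

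Several of the called members share a chromosome. ATP5J (chr21:25724500-25735653), ATP5O (chr21:33903453-33915804) and NDUFV3 (chr21:42893309-42913299) all lie on chromosome 21. The 142 other tested genes there had a median difference of -0.70 in DU145 cKO1 and -0.25 in cKO2, and of -0.64 and -0.22 in the LIN28A-OE clones, but -0.12 and 0.00 in the IGROV1 clones. ATP5A1 (chr18:46080248-46104227) had 33 neighbours with a median of -0.79 in DU145 cKO2, 16 of them lower and 2 higher, and of -0.16 in cKO1. COX7C and NDUFS4 lie on chromosome 5, where the 690 other genes had a median of -0.46 in DU145 cKO2 and 0.14 in cKO1. The 6 members on that chromosome had medians of -0.54 and 0.25. NDUFA12 (chr12:94971333-95003697) had neighbours with a median of -0.40 in cKO1 and -0.02 in cKO2. In IGROV1 cKO1 the 47 neighbours of NDUFA10 had a median of -0.99, with 32 lower and none higher, and in cKO2 a median of -0.25. The 55 neighbours of NDUFC2, which was lower in both clones, had medians of -0.18 in cKO1 and 0.03 in cKO2. NDUFB8 (chr10:100523729-100529923) had 113 neighbours with medians of 0.59 in IGROV1 cKO1 and 0.24 in cKO2, and the median over both clones, 0.40, was the highest of the 81 members in IGROV1 mutants. ATP5G2 (chr12:53665170-53681423) had 191 neighbours. It differed by -0.42 in DU145 cKO1 and -0.68 in LIN28A-OE cKO1, with neighbour medians of -0.18 and -0.45, and by -0.54 in DU145 cKO2 and -0.71 in LIN28A-OE cKO2, with neighbour medians of 0.10 and 0.13. The part of chromosomal position in these differences was not tested.

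**Figure D4:**
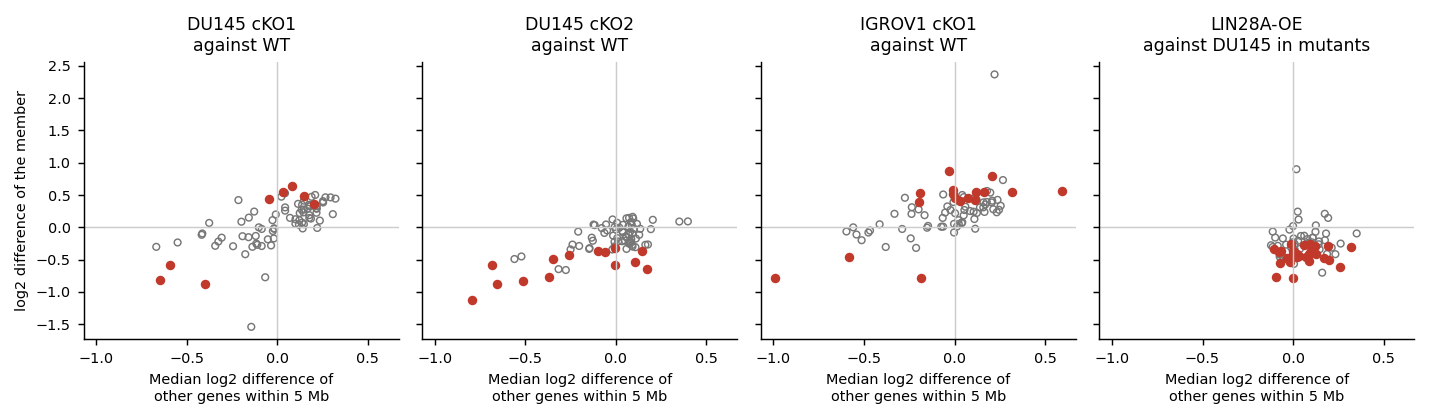
Log2 difference of each of 81 members (vertical axis) against the median log2 difference of the other genes within 5 Mb of it (horizontal axis), in DU145 cKO1, DU145 cKO2, IGROV1 cKO1 and LIN28A-OE against DU145 mutants; filled points passed the threshold. The r is 0.65, 0.68, 0.59 and 0.09, and in the last panel 7 of 81 members lie above 0.

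LIN28A status was compared at a fixed TUT4/7 genotype. In wild-type cells 2 members were lower in LIN28A-OE DU145 than in DU145 and none was higher, where 6.67% of all genes were higher and 2.55% lower. At an unadjusted p under 0.05, 22 members passed, 20 of them lower, and DESeq2 called 4 lower and 0 higher. The member median was -0.18, with a positive difference in 10 of 81, against 0.04 over all genes and -0.07 over other short genes. It was -0.07 without DU145 wild-type replicate 1 and -0.35 with replicates 3 and 4 alone. COX6C had 141, 98.3, 104 and 113 CPM in DU145 wild-type and 98.1, 77.2, 72.5 and 67.4 CPM in LIN28A-OE wild-type cells. These groups did not overlap, and COX6C differed by -0.53 ± 0.11 with adjusted p = 0.00109. NDUFB8 had 164, 101, 105 and 119 CPM against 109, 83.3, 67.9 and 69.6 CPM, groups that overlapped through replicate 1 of the LIN28A-OE cells, with -0.57 ± 0.15 and adjusted p = 0.00953. Replicate 1 had the highest summed level in both groups. Without that of DU145 no member was called, and without that of LIN28A-OE DU145 12 were. With replicates 1 and 2 alone none was called, and with replicates 3 and 4 alone 3 were lower. Of the marker lists, 2 of 5 fibroblast and endothelial markers (median 0.98) and 2 of 6 ovarian carcinoma markers (median 0.24) were higher. The fibroblast and endothelial list summed to 4.74 to 6.24 CPM in DU145 and 8.40 to 14.0 CPM in LIN28A-OE wild-type cells, without overlap, and the ovarian carcinoma list to 2630 to 3084 CPM and 2668 to 3648 CPM. The part of these markers was not tested. DU145 wild-type cells carry late passage labels and LIN28A-OE wild-type cells labels of 1 to 4, which may count from another start. Passage, transduction and LIN28A therefore cannot be told apart.

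In the mutants members of every complex were lower with LIN28A-OE. Of 81 members, 33 (40.7%) were lower and none was higher in LIN28A-OE than in DU145 mutants, where 9.76% of all genes were lower and 13.8% higher. At an unadjusted p under 0.05, 63 members passed, 62 of them lower, and DESeq2 called 42 lower and 0 higher. The member median was -0.30, with 7 positive of 81, against 0.07 for all genes and -0.13 for other short genes. By their labels DU145 mutants were at passage 8 to 12 and LIN28A-OE mutants, after transduction and puromycin selection, at passage 1 to 4. These labels too may count from different starts, and passage, transduction and LIN28A cannot be told apart here either. Complex I had 12 lower of 36 (median -0.28), complex II 1 of 4 (-0.12), complex III 5 of 10 (-0.32), complex IV 7 of 11 (-0.50) and complex V 8 of 15 (-0.35). None of the 5 tested genes outside the core enzymes was called. TUT4 and TUT7 mRNAs were themselves higher in the LIN28A-OE mutants, by 0.61 and 0.64 on the log2 scale. LIN28A mRNA was higher in LIN28A-OE mutants than in LIN28A-OE wild-type cells. The member counts in mutants and in wild-type cells therefore differ in LIN28A level as well as in the number of libraries.

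The largest of these differences was that of ATP5G1, a second gene for the c subunit of ATP synthase. It had 96.2, 119, 106 and 165 CPM in DU145 cKO1 and 103, 94.2, 55.1 and 72.9 CPM in LIN28A-OE cKO1, which overlap, and 76.9, 66.6, 79.7 and 108 CPM in cKO2 against 34.9 to 51.3 CPM in LIN28A-OE cKO2, which do not. ATP5G1 differed by -0.78 ± 0.18 with adjusted p = 0.001. COX8A, the common form of the smallest subunit of complex IV, had 169, 236, 201 and 263 CPM in DU145 cKO1 and 163, 147, 105 and 134 CPM with LIN28A-OE, and 149 to 204 CPM in cKO2 and 84.9 to 119 CPM with LIN28A-OE. Neither clone overlapped, and COX8A differed by -0.77 ± 0.15 with adjusted p = 0.000276. NDUFA4 had 146 to 187 CPM in cKO1 and 142, 138, 107 and 135 CPM with LIN28A-OE, and 104, 91.6, 88.0 and 121 CPM in cKO2 and 58.3, 51.3, 56.0 and 53.2 CPM with LIN28A-OE. Its groups did not overlap either, and NDUFA4 differed by -0.61 ± 0.11 with adjusted p = 0.000102.

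COX6A1, the widely expressed form of subunit 6A of complex IV, had 63.7 to 91.8 CPM in cKO1 and 41.7 to 59.3 CPM with LIN28A-OE. In cKO2 it had 79.6 to 99.3 CPM and 58.5 to 62.8 CPM with LIN28A-OE. There was no overlap in either clone, and COX6A1 differed by -0.55 ± 0.12 with adjusted p = 0.000564. CYC1, the cytochrome c1 subunit of complex III, differed by -0.53 ± 0.15 with adjusted p = 0.00474, with groups that overlapped in cKO1 (162 to 269 against 103 to 173 CPM) and did not in cKO2 (130 to 222 against 98.9 to 123 CPM). Its call was lost without replicate 3 or 4 of LIN28A-OE cKO1, without replicate 4 of either DU145 clone, or with the short-gene covariate (-0.35, adjusted p = 0.019). Further lower members were NDUFB8, COX7A2, NDUFB9, COX7B, NDUFB3, NDUFA7, ATP5B, NDUFS6 and NDUFA9, with differences from -0.52 to -0.44.

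In cKO2 the share of reads without a feature was 9.42% to 11.48% in DU145 and 12.76% to 14.1% with LIN28A-OE, without overlap, and in cKO1 8.32% to 11.45% and 10.33% to 11.81%, which overlapped. The part of this share was not tested. Clone by clone, none of 81 members passed in cKO1, where 1.93% of all genes were higher and 1.16% lower, although 32 had an unadjusted p under 0.05, all of them lower, and DESeq2 called 1 lower. In cKO2 12 were lower and none higher, where 7.78% of all genes were lower and 11.2% higher. At an unadjusted p under 0.05, 48 members passed in cKO2, all lower, and DESeq2 called 16 lower and 0 higher. With the replicate number as a block 1 was lower in cKO1 and 18 in cKO2. The member medians of the clones were -0.26 and -0.34. With replicates 1 and 2 alone no member was called, and with replicates 3 and 4 alone 22 were lower. With the covariate of other short genes 24 were lower and 2 higher, with a member median of -0.19. No member passed in both clones. Of the marker lists in this comparison, 1 of 6 prostate epithelium markers, 3 of 6 ovarian carcinoma markers (median 0.25) and 2 of 5 fibroblast and endothelial markers (median 1.02) were higher and 1 of 2 leukocyte markers was lower. The fibroblast and endothelial list summed to 7.81 to 11.8 CPM in the DU145 mutants and 12.6 to 25 CPM in the LIN28A-OE mutants, and the ovarian carcinoma list to 1576 to 3520 CPM and 2326 to 2721 CPM. The part of these markers was not tested. Only 12 of the 33 lower members had neighbours with a negative median, none beyond 0.2.

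Promoter sequences are shown for 6 members named above. They were picked among the members with full values because their window holds a motif of the known regulators. Of these, ATP5J, ATP5O, COX6A1 and COX8A were lower with LIN28A-OE in the mutants. ATP5G2, ATP5J and ATP5O were lower in both LIN28A-OE mutant clones than in LIN28A-OE wild-type cells, and NDUFS7 was higher in IGROV1 mutants. Each window runs from 250 bases before to 50 bases after 1 RefSeq start of the gene on GRCh38.p14 (the first listed where there are several), 5′ to 3′ on the gene's strand: ATP5G2 at chr12:53676034-53676333 (minus), ATP5J at chr21:25735005-25735304 (minus), ATP5O at chr21:33915755-33916054 (minus), COX6A1 at chr12:120437863-120438162 (plus), COX8A at chr11:63974370-63974669 (plus) and NDUFS7 at chr19:1383657-1383956 (plus). For ATP5G2 and ATP5J the window lies inside the annotated span of the gene, which also has starts further upstream. Capitals mark, on either strand, the NRF1 core GCATGCGC (reverse complement GCGCATGC), the ETS core CCGGAAG (reverse complement CTTCCGG) and the YY1 core AAGATGGC.
ATP5G2: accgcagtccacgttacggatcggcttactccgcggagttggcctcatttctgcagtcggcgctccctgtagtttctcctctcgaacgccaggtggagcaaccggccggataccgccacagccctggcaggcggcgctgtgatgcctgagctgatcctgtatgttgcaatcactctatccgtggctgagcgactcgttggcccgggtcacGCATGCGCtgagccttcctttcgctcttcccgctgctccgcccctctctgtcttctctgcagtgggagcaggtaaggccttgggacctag
ATP5J: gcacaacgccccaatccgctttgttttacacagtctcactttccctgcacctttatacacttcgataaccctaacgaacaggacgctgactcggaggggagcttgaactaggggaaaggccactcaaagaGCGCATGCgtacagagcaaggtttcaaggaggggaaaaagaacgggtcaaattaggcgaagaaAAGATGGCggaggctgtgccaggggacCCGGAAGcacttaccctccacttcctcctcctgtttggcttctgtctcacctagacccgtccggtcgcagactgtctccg
ATP5O: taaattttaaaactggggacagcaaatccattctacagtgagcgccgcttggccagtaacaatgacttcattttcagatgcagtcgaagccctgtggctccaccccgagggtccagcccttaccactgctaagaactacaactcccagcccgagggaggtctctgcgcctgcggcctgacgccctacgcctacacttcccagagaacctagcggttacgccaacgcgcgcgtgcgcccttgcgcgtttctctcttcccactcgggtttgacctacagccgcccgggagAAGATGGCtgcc
COX6A1: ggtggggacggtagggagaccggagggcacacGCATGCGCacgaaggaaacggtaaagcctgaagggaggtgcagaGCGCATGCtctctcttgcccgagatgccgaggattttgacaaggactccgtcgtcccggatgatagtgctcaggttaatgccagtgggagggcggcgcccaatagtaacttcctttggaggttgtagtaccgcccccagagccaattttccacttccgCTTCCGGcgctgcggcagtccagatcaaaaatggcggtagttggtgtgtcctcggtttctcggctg
COX8A: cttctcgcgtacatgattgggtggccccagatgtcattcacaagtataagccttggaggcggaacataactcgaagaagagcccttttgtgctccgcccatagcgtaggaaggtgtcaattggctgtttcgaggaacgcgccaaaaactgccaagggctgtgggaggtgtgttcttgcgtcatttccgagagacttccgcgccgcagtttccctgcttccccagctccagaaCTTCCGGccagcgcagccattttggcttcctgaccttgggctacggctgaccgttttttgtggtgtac
NDUFS7: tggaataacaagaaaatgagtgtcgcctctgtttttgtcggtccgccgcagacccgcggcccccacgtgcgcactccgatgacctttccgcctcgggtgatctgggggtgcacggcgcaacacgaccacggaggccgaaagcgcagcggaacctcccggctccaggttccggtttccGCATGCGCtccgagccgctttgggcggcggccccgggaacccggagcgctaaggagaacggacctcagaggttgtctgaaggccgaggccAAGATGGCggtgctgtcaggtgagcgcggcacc

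ATP5J holds all 3 motifs, and COX6A1 holds the NRF1 core on both strands besides an ETS core. Every window shown holds at least 1 motif because only such windows were picked, so this is not a result. The windows of ATP5A1, ATP5G1, NDUFA4, NDUFA10, NDUFA12 and NDUFB8, also named above and not shown, hold none. Such windows were found for 68 of the 86 members, 1 each, and are set beside the first listed windows of all 27305 genes in the table. The NRF1 core occurred in 13 member windows (19.1%, against 3.27% of all genes), the ETS core in 18 (26.5% against 10.7%), the YY1 core in 11 (16.2% against 3.03%), and at least 1 of them in 32 (47.1% against 15.6%). Among the 29 windows of members that were lower with LIN28A-OE in mutants, 15 (51.7%) held at least 1 motif, and among the 36 of the other tested members 17 (47.2%) did. In the same order, the NRF1 core was in 24.1% and 16.7%, the ETS core in 27.6% and 27.8%, and the YY1 core in 24.1% and 11.1%. These shares were not tested. A motif in a window is a description of its letters and not a binding site.

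The other genes of the pathway were taken from lists of assembly factors, regulators and citric acid cycle enzymes. The last list also holds PDHA1 and PDHB, subunits of pyruvate dehydrogenase, which feeds the cycle and is not an enzyme of it. In IGROV1 mutants, where 15.1% of all genes were higher and 18.1% lower, 7 of 15 citric acid cycle enzymes were higher, among them SUCLG1 (0.56), PDHA1 (0.54) and PDHB (0.30), and 7 of 23 complex IV assembly factors were higher and 2 lower. HIGD1A, a factor that associates with complexes III and IV, rose by 0.98 and COX15, of haem A synthesis, by 0.69. Of 12 regulators of the nuclear genes, 4 were higher and 2 lower: ESRRA rose (0.64) and PPARGC1B rose (0.55), while PPARGC1A fell (-1.27) and HIF1A fell (-1.59). Of 15 complex I assembly factors 2 were higher and 1 lower (NUBPL, which delivers iron-sulphur clusters to complex I, by -0.75), with a median of 0.01, and 2 of 14 genes of mitochondrial DNA expression were lower. The complex II and III assembly factors had medians of 0.04 and -0.02. In LIN28A-OE against DU145 mutants, where 13.8% of all genes were higher and 9.76% lower, 6 of 15 citric acid cycle enzymes were lower (CS -0.53, IDH3B -0.53, MDH2 -0.43 and FH -0.39 among them). There 5 of 15 complex I assembly factors, 4 of 6 complex III assembly factors (BCS1L -0.82, UQCC3 -0.64, UQCC1 -0.62 and UQCC2 -0.37) and 7 of 23 complex IV assembly factors were lower, and COA5 (0.38) was the 1 higher. NRF1 was lower (-0.37, adjusted p = 0.000197) and YY1 higher (0.24, adjusted p = 0.00958), in a list where 1 of 12 regulators was higher and 1 lower, with a median of 0.01. Of 14 genes of mitochondrial DNA expression 1 was lower, and no complex II or ATP synthase assembly factor was called. In DU145 mutants, where 7.84% of all genes were higher and 10.2% lower, 2 of 15 citric acid cycle enzymes were lower. YY1 was lower (-0.48), in a list where 2 of 12 regulators were lower and none higher. The complex I assembly factor NDUFAF5 was higher (1.00), in a list where 3 of 15 were higher and none lower. NDUFAB1, the mitochondrial acyl carrier protein and a subunit of complex I, was higher in IGROV1 mutants (0.36) and lower with LIN28A-OE in mutants (-0.34), and COX4I1 was higher in IGROV1 mutants (0.49).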

How the data were processed

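mRNA was selected with poly(A) beads and made into directional libraries (NEBNext Ultra II) by the authors. Per the labels and the methods of the study, reads were trimmed with Trimmomatic 0.39, cleared of rRNA, aligned to hg38 with HISAT2 2.1.0 and counted per gene with HTSeq; the annotation and the strand setting are not given in the sources used here. The deposited values are raw read counts per gene symbol. Rows naming no gene were left out of library sizes (8.32% to 14.79% without a feature and 1.77% to 2.2% ambiguous). Small RNA libraries were not used here.

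Groups came from the sample labels. Counts were fitted with edgeR 4.0.16 in R 4.3.3 (glmQLFit and glmQLFTest, TMM scaling, filterByExpr, 1 fit of 36 libraries with group means), and p-values were adjusted by Benjamini-Hochberg over all 15556 genes tested, with a threshold of 0.01. CPM values use TMM-scaled library sizes. Alternatives were DESeq2 1.42.0, other scalings, no filter, a replicate block, single sets and left-out libraries. The test was tried on simulated counts. Replicate numbers were taken to pair groups where the deviations from the group means of all 4 same-numbered pairs correlated above 0.1. This was so for LIN28A-OE DU145 cKO2 and wild-type cells alone (r from 0.17 to 0.51, from the data and not the labels), where a block gave 26 lower members in place of 23, and 17 in place of 12 in a fit of these groups alone. Positions and transcript lengths were matched by symbol or synonym on GRCh38 for 86 of 86 members, and promoter windows came from RefSeq (GRCh38.p14).

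Members with full values were, per comparison, up to 5 in each direction with the largest log2 difference among those past the threshold with both clones on the same side, plus tissue-restricted isoforms. Members and lists were chosen with earlier results of these data known. Members named beyond that rule were chosen after their values were seen. Beyond this, leaving out 4 libraries, a covariate of short genes and a replicate block in each clone were alternatives chosen after seeing the data.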

Additional observations from a re-analysis of the deposited data

Results flagged for a closer look

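In 84 groups of 4 libraries tested for a library apart from its group (by Dixon's test of the gap to the nearest library), 6 were found, and chance gives about 1 in 20. In IGROV1 cKO2 replicate 4, NDUFS7 was at 135 CPM against 82.5 to 91.2 CPM in the other libraries, and ATP5D at 237 CPM against 149 to 163 CPM. NDUFA10 was at 99.9 CPM in replicate 4 of IGROV1 cKO1 and at 148 CPM in replicate 4 of cKO2, again above the others. Replicate 4 also had the highest summed member level in both clones. ATP5J was low in DU145 cKO2 replicate 3 at 74.4 CPM, and ATP5G2 was low in LIN28A-OE DU145 cKO2 replicate 2 at 135 CPM. The part of these libraries in the comparisons is given with the left-out fits.

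The TUT4/7 effect differed between IGROV1 and DU145, by an interaction term, for 16 of 81 members, where 11.3% of all genes were higher and 12.8% lower. Of these, 9 are among the members with full values, which were picked for large differences in the same groups, so that their number is not a result. The difference was higher in IGROV1 for NDUFB8 (0.85), ATP5A1 (0.82), COX6C (0.75), ATP5J (0.73), ATP5O (0.72), ATP5G2 (0.70) and NDUFA12 (0.62), and lower for NDUFC2 (-1.04) and NDUFA10 (-0.56), all on the log2 scale. The genes near several of them are described with the chromosomal positions of the members, and the part of position was not tested.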

How the results depend on the processing

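Counts below are members past the threshold out of 81. For LIN28A-OE against DU145 in wild-type cells the count of 2 was 1 with DESeq2 size factors, 4 with plain library totals, 4 with the DESeq2 test, 1 without the low-count filter, 7 at adjusted p under 0.05, 1 with the set of replicates as a term, 0 with replicates 1 and 2 alone, 0 with only the groups compared, 11 without the 4 libraries apart and 8 with the short-gene covariate. For IGROV1 mutants the count of 20 was 13 without the filter, 35 at adjusted p under 0.05, 4 with replicates 1 and 2 alone, 9 with replicates 3 and 4 alone, 11 with only its groups and 6 with both clones required. For DU145 mutants the count of 7 was 12 at adjusted p under 0.05, 0 with replicates 3 and 4 alone, 2 with both clones required, 16 without the 4 libraries and 21 with the covariate. For LIN28A-OE DU145 mutants the count of 10 was 6 with upper-quartile factors, 2 with replicates 3 and 4 alone, 5 with both clones required and 18 with the covariate. For LIN28A-OE against DU145 in mutants the count of 33 was 0 with replicates 1 and 2 alone, 0 with both clones required, 55 with only its groups and 64 without the 4 libraries, none of which belongs to the groups compared, so that this change came through the shared fit. For the effect in IGROV1 minus that in DU145 the count of 16 was 28 at adjusted p under 0.05, 5 with replicates 1 and 2 alone and 4 with replicates 3 and 4 alone. The cause of these moves was not tested, but single sets hold fewer samples. The other 75 of 107 settings were within 1.5 times of the reported count. The replicate block is not among the settings listed here, and it moved the count for LIN28A-OE in wild-type cells from 2 to 5.

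With 1 library left out the counts ran from 10 to 24 for IGROV1 mutants, 5 to 8 for DU145 mutants, 6 to 10 for LIN28A-OE DU145 mutants, 0 to 12 for LIN28A-OE in wild-type cells, 20 to 41 for LIN28A-OE in mutants, 31 to 40 between the wild-type lines and 13 to 18 for the effect in IGROV1 minus that in DU145. The libraries that moved a count by over 1.5 times were IGROV1 wild-type replicates 2 (12), 3 (11) and 4 (10) and cKO1 replicate 4 (13), LIN28A-OE wild-type replicates 1 and 2 (6 each, LIN28A-OE DU145 mutants), and DU145 cKO1 replicate 2 (21) and LIN28A-OE cKO1 replicate 3 (20) for LIN28A-OE in mutants. For LIN28A-OE in wild-type cells they were DU145 wild-type replicates 1 (0), 2 (4) and 4 (1) and LIN28A-OE wild-type replicates 1 (12), 2, 3 and 4 (1 each). Of 24 named calls 19 passed in every such fit. ATP5D in IGROV1 mutants passed in 4 of 12, and NDUFB8 with LIN28A-OE in wild-type cells in 3 of 8. COX6C in the same comparison was lost without DU145 wild-type replicate 1.

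In 9 of 10 comparisons of 2 groups the replicate numbers were not shown to pair the samples, since 0 to 3 of 4 pairs correlated above 0.1. With a replicate block the counts were 26 for IGROV1 mutants, 9 for DU145 mutants, 14 for LIN28A-OE DU145 mutants, 5 for LIN28A-OE in wild-type cells, 42 for LIN28A-OE in mutants, 19 for the effect in IGROV1 minus that in DU145 and 39 between the wild-type lines. Clone by clone, with both directions together, the block moved the counts from 17 to 20 in IGROV1 cKO1, 13 to 18 in IGROV1 cKO2, 8 to 14 in DU145 cKO1, 14 to 16 in DU145 cKO2 and 11 to 12 in LIN28A-OE cKO1, and from 12 to 18 for LIN28A-OE against DU145 in cKO2. Plain library totals moved the all-gene median between the wild-type lines to 0.10. The DU145 mutant median of the members ran from -0.14 to 0.14, and that of LIN28A-OE DU145 mutants from -0.25 to 0.02. CPM without mitochondrially encoded genes could not be run as an alternative, since the library totals used here hold none of their reads. Depth limits the isoforms near 1 CPM.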
